A study of Mus musculus with 14 samples.

Results

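The keratin family was described in mouse gallbladder, liver and small intestine, as organoids and as tissue. Members were the genes whose symbol is Krt followed by a number and at most 1 letter, and 52 of the 19938 genes with a probe set of their own met that rule. Each keratin had 1 such probe set. The study measured RNA on 14 Affymetrix arrays in 7 groups of 2, all from C57BL/6 mice with no transgene or mutation named: differentiated organoids of gallbladder, undifferentiated organoids of gallbladder, of liver and of small intestine, and tissue of the same 3 organs. Organoids are clusters of epithelial cells that grow in a gel. Here they grew in Matrigel in AdDMEM/F12 with B27, N2, N-acetylcysteine, EGF, FGF10, nicotinamide, HGF, R-spondin 1 and noggin, and the differentiated gallbladder organoids went 2 weeks without R-spondin 1, noggin and nicotinamide. The labels give no age or sex, and the culture conditions of the 3 kinds of undifferentiated organoid are not listed separately. They do not say that the 2 arrays of a group came from separate mice or cultures, so p-values measure only the spread between these arrays, which may be technical. For each gene that spread is pooled over all 7 groups, so a group that varies more than the others is given too small an error.

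Keratins are the intermediate filament proteins of epithelial cells. A filament is built from pairs of 1 acidic type I keratin and 1 basic or neutral type II keratin, and desmosomes and plakin proteins tie it to the cell surface and to other parts of the cytoskeleton. Simple epithelia use Krt8 and Krt18, which are the keratin pair of hepatocytes, and bile ducts, gallbladder and gut add Krt7, Krt19 or Krt20 according to the organ. Other members belong to stratified epithelium, hair and nail.

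The family had 28 type I members, of which 27 lay on chromosome 11 between 99232761 and 100269951 (RefSeq, build GRCm38.p6), and 24 type II members, all on chromosome 15 between 101348315 and 102004342. Krt18 was the 1 type I gene on chromosome 15, at 102028216 to 102032026, next to its type II partner Krt8 at 101996711 to 102004342. Krt74 is annotated as a transcribed pseudogene and the other members named here as coding genes. The 120 bases before the RefSeq start are shown for Krt7, Krt20 and Krt23, whose signal separated organoids from gallbladder or liver tissue by large amounts, and for Krt18, which had a high signal in every group. They lie at chr15:101412283-101412402 (plus strand), chr11:99438154-99438273 (minus strand), chr11:99493121-99493240 (minus strand) and chr15:102028096-102028215 (plus strand), and capitals mark the motifs searched.
Krt7: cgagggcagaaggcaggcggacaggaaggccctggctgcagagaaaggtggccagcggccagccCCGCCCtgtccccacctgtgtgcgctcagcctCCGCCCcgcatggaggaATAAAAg
Krt20: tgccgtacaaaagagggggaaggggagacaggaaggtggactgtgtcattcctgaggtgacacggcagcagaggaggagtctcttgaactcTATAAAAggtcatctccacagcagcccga
Krt23: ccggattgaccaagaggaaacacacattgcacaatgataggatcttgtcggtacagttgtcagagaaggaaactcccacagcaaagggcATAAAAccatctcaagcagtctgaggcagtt
Krt18: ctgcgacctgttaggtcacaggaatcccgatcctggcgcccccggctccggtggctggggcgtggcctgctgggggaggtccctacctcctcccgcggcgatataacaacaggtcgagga
The letters searched on both strands were TATAAA and ATAAAA, which are forms of the TATA box and can overlap each other, GGGCGG, the core of a GC box, and TGANTCA, the letters of an AP-1 site. The motifs were chosen after the sequences were seen. Krt20 held TATAAA from 29 bases before the start, with an overlapping ATAAAA from 28 bases before it. Krt23 held ATAAAA from 31 bases before the start. Krt7 held ATAAAA from 7 bases before the start and GGGCGG on the other strand from 56 and 24 bases before it. None of these letters was found in the Krt18 window. RefSeq promoter windows matched 36 of the 52 keratins: 15 of the 36 held TATAAA, which 6.34% of 32851 windows of all genes held, and 15 held ATAAAA, against 8.3% of all windows. GGGCGG was in 2 of the 36, against 26.5% of all windows, and TGANTCA in 1, against 3.41%.

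Values are log2 signals as the authors normalised them, so a difference of 1 is a change of 2-fold. Replicate arrays correlated at 0.996 to 0.998 over all genes in the organoid groups and at 0.965 to 0.982 in the tissue groups. The pooled standard deviation (SD) of the keratins was 0.0992 to 0.158 in organoids and 0.168 to 0.247 in tissues, and was largest in gallbladder tissue. No detection calls were used, so the low end of the scale was described by 1027 olfactory receptor genes, whose 95th percentile lay between 6.53 and 7.10 on the 14 arrays. A group whose 2 arrays are both at or below that percentile is said here to lie within the low range, and a fold against it is given as a lower bound, with the dimmer group set on each array to the higher of its own value and the percentile. Such a bound compares group means and does not allow for their error. The fitted log2 differences keep the deposited values. The olfactory receptor median was 5.52 on gallbladder tissue replicate 1, against 4.83 to 5.04 on the other 13 arrays. The hepatocyte markers, such as albumin, had a mean of 12.8 and 13.9 on the gallbladder tissue arrays (9 of 9 above the low range on both), against 14.08 and 14.02 in liver tissue. Smooth muscle markers averaged 13.2 and 12.8 in gallbladder tissue and 11.4 and 11.3 in small intestine tissue (6 of 6 above the low range in each), and pancreatic acinar markers 6.94 and 12.8 on small intestine tissue replicates 1 and 2 (5 of 7 listed genes were measured). Epithelial markers such as Epcam averaged between 10.7 and 11.9 in every group other than liver tissue, where they averaged 7.58 and 7.53 and 4 of 7 were above the low range. In such bulk samples, fewer cells of a type and less RNA per cell cannot be told apart.

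Of the 52 keratins, 13 lay above the 95th percentile of the olfactory receptor genes on all 14 arrays and 14 lay at or below it on all 14. The 5 simple epithelial keratins ran between 5.64 and 14.2. The 3 basal keratins (Krt5, Krt14 and Krt15) ran between 6.25 and 7.23, and the 4 stress and appendage keratins between 5.54 and 8.93. The 11 suprabasal keratins ran between 4.97 and 8.90, with 4 within the low range throughout. The 9 keratins of the inner root sheath and companion layer of the hair follicle ran between 4.87 and 7.28, with 5 within the low range, and the 15 hair and nail keratins between 4.86 and 8.995, with 3 within it. The other 5, including Krt23 and Krt80, ran between 5.01 and 10.8. The members that had either a group mean of 9 or more or a called difference of 1 or more between groups compared, where a call means a limma adjusted p under 0.05, were Krt8, Krt18, Krt7, Krt19, Krt20, Krt23, Krt80, Krt6a, Krt17 and Krt4.

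**Figure D1:**
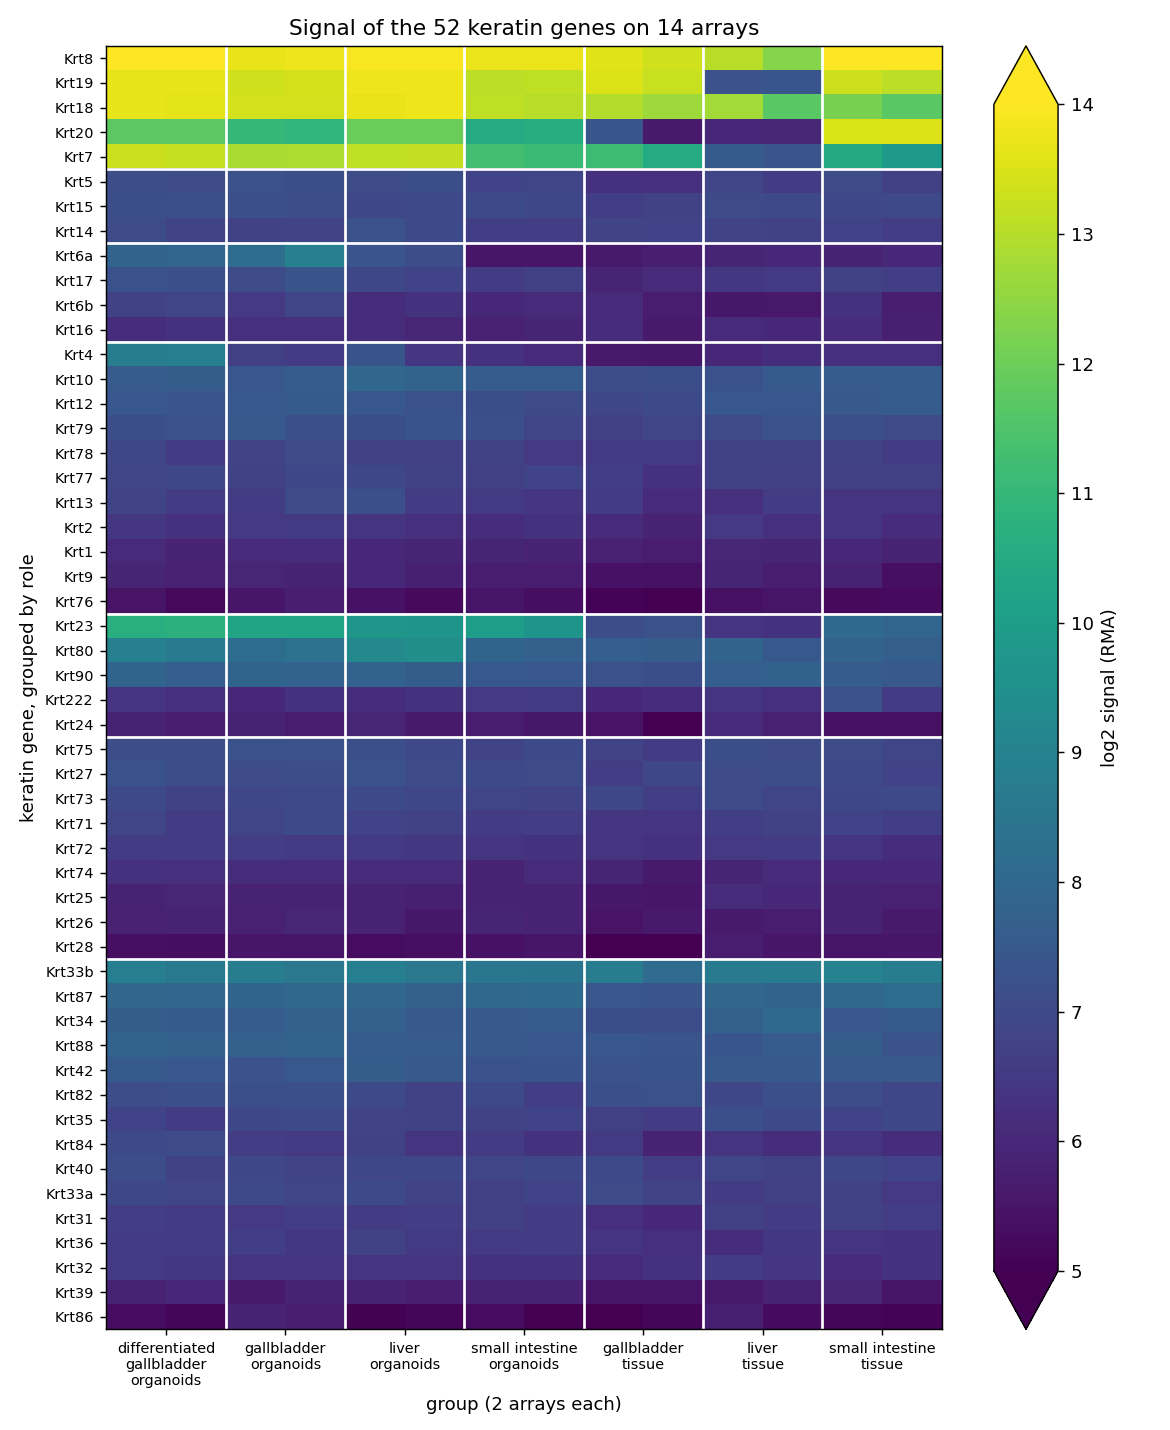
All 52 keratins (rows, by role) on the 14 arrays (columns, by group), coloured by log2 signal. Krt8 and Krt18 are high throughout, Krt7 and Krt19 are at 7.29 to 7.55 on the liver tissue arrays, and most keratins of skin and hair stay between 5 and 8.

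Krt8, the type II keratin common to all simple epithelia, read 14.16 and 14.05 in differentiated gallbladder organoids, 13.71 and 13.77 in gallbladder organoids, 13.90 and 13.93 in liver organoids, with 13.74 and 13.73 in small intestine organoids. In tissue it read 13.55 and 13.36 (gallbladder), 13.02 and 12.36 (liver) and 14.20 and 14.10 (small intestine). Krt8 was thus lowest on the liver tissue arrays, and it was among the highest signals of the arrays, where RMA values can level off. Krt18, its type I partner, read 13.65 and 13.62 in differentiated gallbladder organoids, 13.39 and 13.40 in gallbladder organoids, 13.69 and 13.79 in liver organoids, with 13.15 and 13.02 in small intestine organoids. Krt18 read 12.97 and 12.70 in gallbladder tissue, 12.74 and 11.68 in liver tissue, and 12.15 and 11.70 in small intestine tissue. Every organoid array was above every tissue array for Krt18. The 2 liver tissue replicates lay further apart than any 2 of the tissue group means (12.83 in gallbladder, 12.21 in liver and 11.92 in small intestine).

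Krt7, the type II keratin of ducts and glands, read 13.29 and 13.21 in differentiated gallbladder organoids, 12.87 and 12.89 in gallbladder organoids, 13.14 and 13.16 in liver organoids, with 11.28 and 11.14 in small intestine organoids. In tissue, Krt7 read 11.16 and 10.55 (gallbladder), 7.55 and 7.38 (liver) and 10.52 and 9.88 (small intestine). The order was gallbladder and liver organoids, then small intestine organoids and gallbladder tissue, then small intestine tissue, with liver tissue last. Krt19, the smallest keratin and a widely used marker of bile duct cells, read 13.68 on both differentiated gallbladder organoid arrays, 13.35 and 13.43 in gallbladder organoids, 13.76 and 13.77 in liver organoids, with 13.11 and 13.12 in small intestine organoids. Krt19 read 13.52 and 13.24 in gallbladder tissue, 7.29 and 7.41 in liver tissue, and 13.33 and 13.09 in small intestine tissue. Liver tissue stood alone for Krt19, and the other 6 groups lay between 13.09 and 13.77.

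Krt20, a type I keratin of differentiated gut epithelium and urothelium, read 11.72 and 11.74 in differentiated gallbladder organoids, 11.01 and 10.93 in gallbladder organoids, 11.94 and 11.96 in liver organoids, with 10.53 and 10.62 in small intestine organoids. In tissue, Krt20 read 7.40 and 5.64 (gallbladder), 6.01 and 5.96 (liver) and 13.48 and 13.52 (small intestine). Krt20 was therefore highest in small intestine tissue and at the low end of the scale in liver tissue, and the gallbladder tissue arrays disagreed, with replicate 1 above and replicate 2 below both liver tissue arrays. Krt23, a type I keratin reported in the bile duct reaction of injured liver, read 10.64 and 10.79 in differentiated gallbladder organoids, 10.25 on both gallbladder organoid arrays, 9.78 and 9.65 in liver organoids, with 10.00 and 9.65 in small intestine organoids. Krt23 read 7.12 and 7.24 in gallbladder tissue, 6.36 and 6.30 in liver tissue, and 8.10 and 7.94 in small intestine tissue. All 8 organoid arrays were above all 6 tissue arrays for Krt23.

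Krt80, a type II keratin found near desmosomes in differentiating epithelium, read 8.91 and 8.73 in differentiated gallbladder organoids, 8.19 and 8.35 in gallbladder organoids, 9.25 and 9.44 in liver organoids, with 7.89 and 7.76 in small intestine organoids. Krt80 read 7.69 and 7.65 in gallbladder tissue, 7.86 and 7.48 in liver tissue, and 7.86 and 7.72 in small intestine tissue. Krt80 in small intestine organoids overlapped the tissue range, and in liver organoids it was above every other array. Krt6a, a type II keratin that keratinocytes switch on at wound edges, read 7.87 and 7.95 in differentiated gallbladder organoids, 8.23 and 8.93 in gallbladder organoids, 7.38 and 7.13 in liver organoids, with 5.54 and 5.55 in small intestine organoids. In tissue, Krt6a read 5.66 and 5.77 (gallbladder), 5.93 and 5.99 (liver) and 5.90 and 6.05 (small intestine), all within the low range. Krt6a is nearly identical to its neighbour Krt6b, so its probe set may share signal with Krt6b, which read 5.59 to 6.88 over all arrays.

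Krt17, a type I keratin of wounds and hair follicles, read 7.28 and 7.20 in differentiated gallbladder organoids, 7.05 and 7.32 in gallbladder organoids, 6.94 and 6.81 in liver organoids, with 6.60 and 6.69 in small intestine organoids. Krt17 read 5.94 and 6.11 in gallbladder tissue, 6.45 and 6.54 in liver tissue, and 6.77 and 6.66 in small intestine tissue. It was near the low range in every group and lowest in gallbladder tissue. Krt4, a type II keratin of the upper layers of oesophagus and other wet stratified linings, read 8.77 and 8.90 in differentiated gallbladder organoids, 6.71 and 6.62 in gallbladder organoids, 7.34 and 6.44 in liver organoids, with 6.30 and 6.08 in small intestine organoids. In tissue, Krt4 read 5.62 and 5.59 (gallbladder), 6.05 and 6.18 (liver) and 6.20 on both small intestine arrays. Differentiated gallbladder organoids were the highest group for Krt4 by a wide gap.

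**Figure D2:**
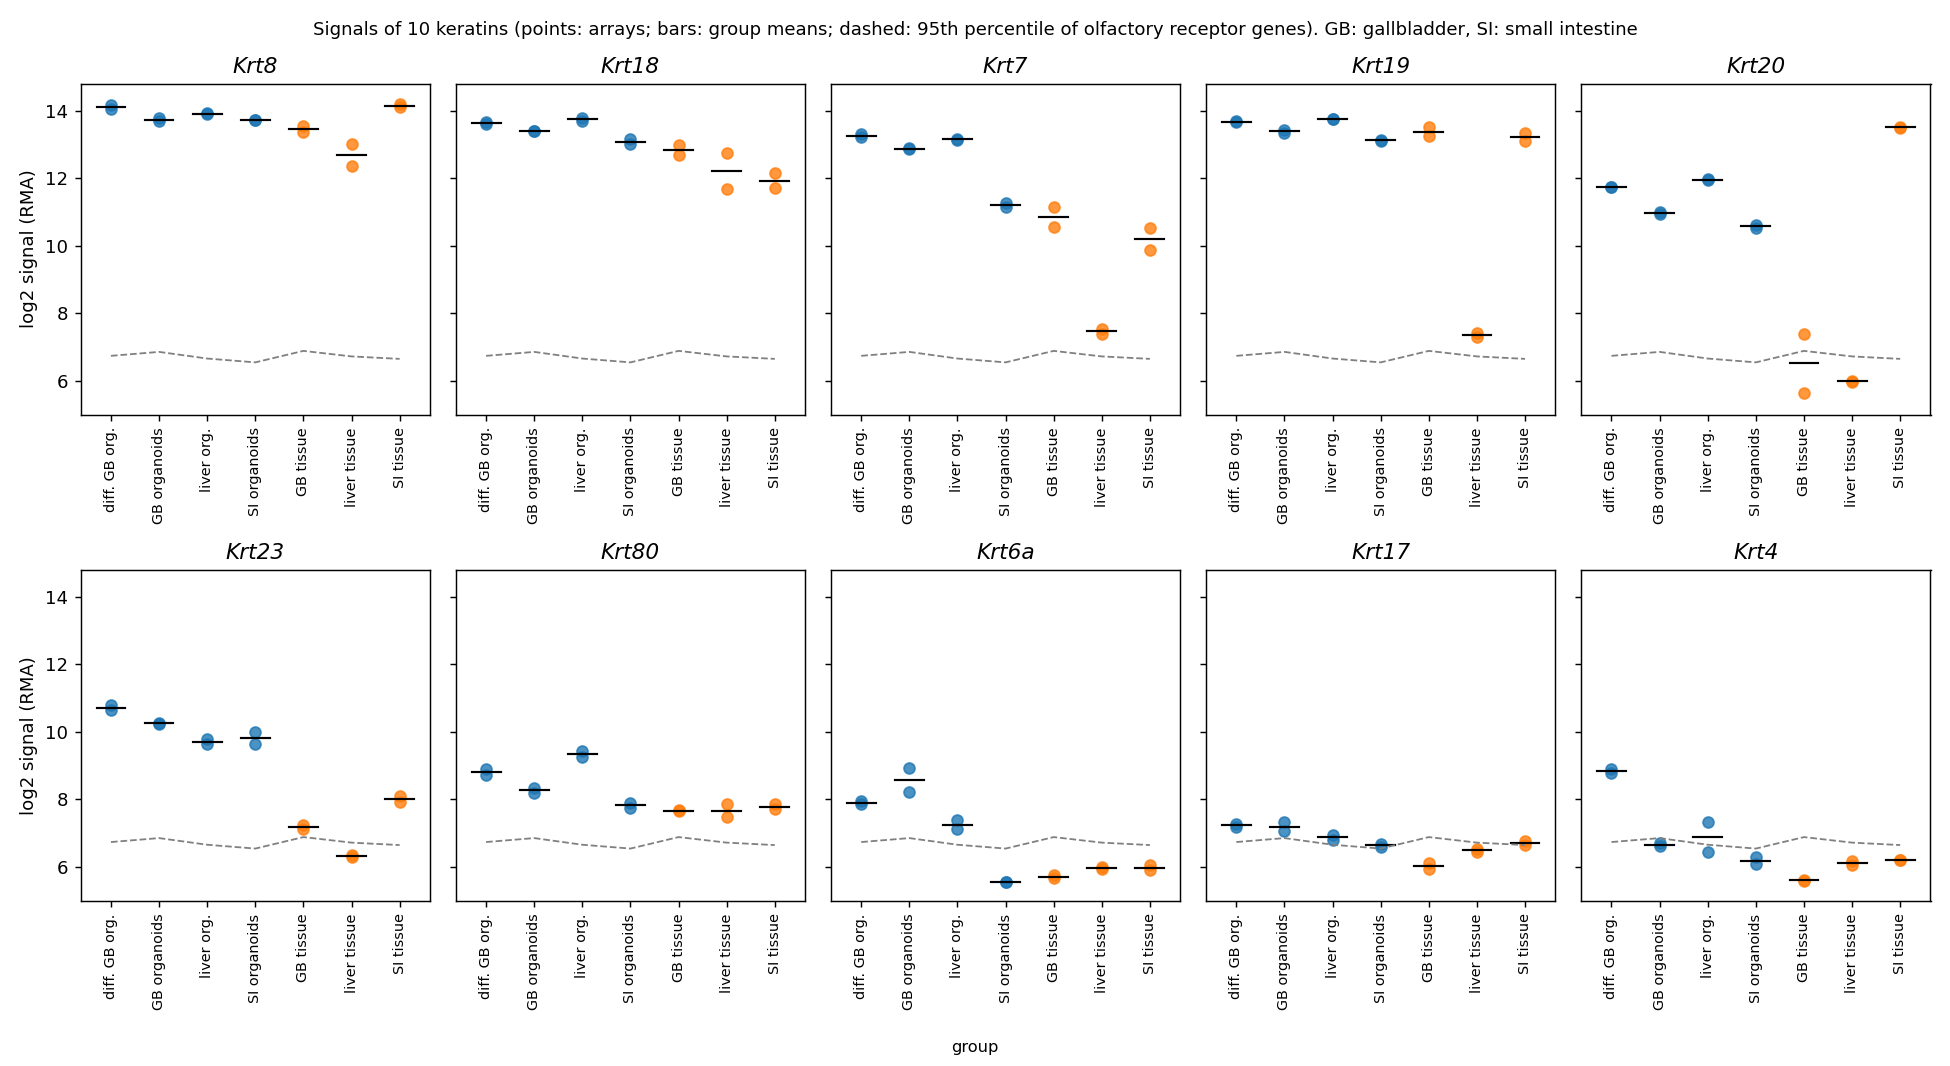
Log2 signal of the 10 named keratins on each of the 14 arrays, with groups on the x axis, 1 point per array and a bar at the group mean. Krt19 separates liver tissue (7.29 and 7.41) from all other groups (13.09 and above), and Krt4 separates differentiated gallbladder organoids (8.77 and 8.90) from the rest.

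Differentiation of gallbladder organoids changed 1 keratin by this test, Krt4, which was higher in differentiated than in undifferentiated gallbladder organoids by 2.17 ± 0.23 log2 units (SE of the fit, n = 2 arrays a group; limma, adjusted p = 0.000484 over 19938 genes). Undifferentiated gallbladder organoids lay within the low range for Krt4, so the difference in group means was at least 3.94-fold. Tested against a difference of 1 log2 unit, no keratin was called. The Krt4 call was 1 of 52 keratins, beside 4.73% of all genes called (2.8% higher and 1.93% lower), and 9 keratins had an unadjusted p under 0.05. The count was 2 without gallbladder organoid replicate 1 or either gallbladder tissue array, and 3 without either liver tissue array. Krt13, the usual type I partner of Krt4 and named here after its values were seen, averaged 6.70 in differentiated and 6.83 in undifferentiated gallbladder organoids. The simple keratins and Krt23 and Krt80 were all positive without being called: 0.76 for Krt20, 0.38 for Krt7, 0.37 for Krt8, 0.29 for Krt19, 0.24 for Krt18, 0.55 for Krt80 (adjusted p = 0.0583) and 0.47 for Krt23 (0.0775). Krt8, Krt18 and Krt19 read above the 99th percentile of all genes on every array of both groups, where signals can level off. Krt7 did so on both differentiated arrays and on gallbladder organoid replicate 2. For these members the lack of a call does not show equal levels. Krt6a was at -0.67 (limma, adjusted p = 0.0835) and Krt17 at 0.05. The 2 arrays of each group did not overlap for 12 keratins that were higher and 11 that were lower in differentiated organoids, beside 28.4% and 38.2% of all genes. A fit on these 4 arrays alone, which leaves out the wider spread of the tissue arrays, called 10 keratins, 9 higher and 1 lower, beside 26.8% of all genes.

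Squamous markers other than keratins, such as Ivl and Dsg3, averaged 7.51 and 7.40 in differentiated and 7.34 and 7.39 in undifferentiated gallbladder organoids, with 6 of 11 above the low range in each, but they did not move alike. Dsg3, a desmosomal cadherin, was the 1 of 11 called, beside 4.73% of all genes. It read 9.32 and 9.01 in differentiated and 6.63 and 6.69 in undifferentiated gallbladder organoids, a difference of 2.505 ± 0.13 (limma, adjusted p = 7.43e-06). Lor, loricrin, was not called and read 9.55 and 9.72 in differentiated and 10.20 and 10.25 in undifferentiated gallbladder organoids. The part of these markers in the Krt4 result was not tested. Tuft cell markers averaged 8.72 and 8.49 in differentiated and 6.54 and 6.49 in undifferentiated gallbladder organoids, with 8 and 5 of 9 above the low range. They had 7 of 9 called higher, beside 2.8% of all genes, and their part was not tested either. Keratin linkers are plakins and desmosomal plaque proteins. Beside 2.8% of all genes called higher and 1.93% lower, 1 of 12 linker genes rose in differentiated organoids and none fell. It was Dst, the plakin dystonin, at 8.33 and 8.47 in differentiated and 7.68 and 7.76 in undifferentiated gallbladder organoids, a difference of 0.68 ± 0.14 (limma, adjusted p = 0.0248). The Dst call was lost when any 1 of these 4 arrays was left out (limma, adjusted p 0.107 to 0.224). Of 17 other intermediate filament genes, 2 fell and none rose, beside the same shares of all genes. Nefl, the light neurofilament chain, read 6.99 and 6.60 in differentiated and 8.82 and 9.04 in undifferentiated gallbladder organoids (-2.14 ± 0.35, limma, adjusted p = 0.00618). Ina, a neuronal filament protein known as alpha-internexin, read 6.95 and 6.88 in differentiated and 8.74 and 8.95 in undifferentiated gallbladder organoids (-1.93 ± 0.17, adjusted p = 0.000153). Nefl was not called without differentiated gallbladder organoid replicate 2 or gallbladder organoid replicate 2 (limma, adjusted p = 0.0765 and 0.0656).

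Between gallbladder organoids and liver organoids none of the 5 simple keratins was called. All 5 differences were negative, from -0.98 for Krt20 (limma, adjusted p = 0.146) and -0.37 for Krt19 (0.0699) to -0.18 for Krt8. For Krt8, Krt18 and Krt19, every array of both groups read above the 99th percentile of all genes, where signals can level off. Krt7 did so on both liver organoid arrays and on gallbladder organoid replicate 2. The lack of a call for these members therefore does not show equal levels. In all, 5 of the 52 keratins were called, 3 higher and 2 lower in gallbladder organoids, beside 12.7% of all genes (6.17% higher and 6.52% lower). Among the 5 called, 1 was not above the low range on both arrays of either group. Krt6a was higher in gallbladder organoids by 1.33 ± 0.19, which is 2.51-fold (limma, adjusted p = 0.00166). Krt80 was lower in gallbladder organoids by -1.07 ± 0.14 on the log2 scale (adjusted p = 0.00108). Krt23 was higher by 0.54 ± 0.13 (limma, adjusted p = 0.023), but was not called without any 1 of the gallbladder or liver organoid arrays (adjusted p 0.0661 to 0.161). The count was 2 or 3 without differentiated gallbladder organoid replicate 1 or 2, or any 1 of the gallbladder and liver organoid arrays. Squamous markers other than keratins averaged 7.34 and 7.39 in gallbladder organoids and 7.37 and 7.15 in liver organoids, and of the 11, 2 were called higher (Lor 1.57 ± 0.18, Sbsn) and 2 lower (Dsg3 -1.04 ± 0.13, Ivl -0.80 ± 0.16) in gallbladder organoids, the Ivl call being lost without either gallbladder organoid array or liver organoid replicate 1. Tuft cell markers averaged 6.54 and 6.49 in gallbladder organoids and 8.54 and 8.15 in liver organoids, with 7 of 9 called lower and none higher. The part of either list in the keratin differences was not tested. Of the linkers, 3 of 12 fell and none rose in gallbladder organoids relative to liver organoids: Pkp1, a plakophilin of desmosomes, by -1.92 ± 0.16, desmoplakin (Dsp) by -1.67 ± 0.31 and Pkp3 by -0.87 ± 0.18. The Dsp call was lost without gallbladder organoid replicate 1 or liver organoid replicate 2 (limma, adjusted p = 0.0601 and 0.0653). Among the other filament genes 3 of 17 rose and 1 fell: Nefl by 2.90 ± 0.35, Ina by 2.28 ± 0.17 and the progenitor filament gene Nes (nestin) by 1.39 ± 0.27, while Lmnb1, a nuclear lamin, fell with a difference of -0.63 ± 0.18. Pkp3 and Lmnb1 were not called when any 1 of these 4 arrays was left out, Lmnb1 also not after quantile normalisation (limma, adjusted p = 0.0701) or median centring (0.0621), and Nes not without gallbladder organoid replicate 2 or either liver organoid array.

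Between gallbladder organoids and small intestine organoids, 10 keratins were higher and none lower in gallbladder organoids, beside 35.6% of all genes called (20.2% higher and 15.4% lower). Among the 10 called, 2 were not above the low range on both arrays of either group. Krt6a was higher by 3.03 ± 0.19 (limma, adjusted p = 1.3e-06), which is at least 4.1-fold because small intestine organoids lay within the low range, and Krt7 by 1.67 ± 0.22, or 3.17-fold (adjusted p = 0.000221). Krt17 was higher by 0.54 ± 0.12 (limma, adjusted p = 0.00528), Krt80 by 0.45 ± 0.14 (0.0317) and Krt23 by 0.43 ± 0.13 (0.0256). The other 5 called members differed by 0.34 to 0.72. The Krt80 call did not hold after quantile normalisation (limma, adjusted p = 0.0741) or median centring (0.0662), or without any 1 of these 4 arrays, and Krt23 was not called without either gallbladder organoid array or without small intestine organoid replicate 2. Krt17 was not called without gallbladder organoid replicate 2 (limma, adjusted p = 0.0592). The count fell to 5 without gallbladder organoid replicate 1, and to 3 without gallbladder organoid replicate 2 or small intestine organoid replicate 2. Krt8, Krt18, Krt19 and Krt20 were not called. For Krt8, Krt18 and Krt19, all arrays of both groups read above the 99th percentile of all genes. Signals can level off there, so the lack of a call does not show equal levels of these members. Squamous markers other than keratins averaged 7.34 and 7.39 in gallbladder organoids and 6.27 and 6.23 in small intestine organoids, with 6 and 4 of 11 above the low range and 6 called higher. Tuft cell markers averaged 6.54 and 6.49 in gallbladder organoids and 8.12 and 7.59 in small intestine organoids, with 6 of 9 called lower. The part of either list in the Krt6a difference was not tested. Of the linkers, 1 rose (Ppl, periplakin, 1.42 ± 0.38) and 3 fell (Pkp1 -1.55 ± 0.16, Eppk1 -1.48 ± 0.36, Dsp -1.12 ± 0.31). The Ppl and Dsp calls were lost when any 1 of the 4 arrays was left out, and the Eppk1 call without gallbladder organoid replicate 2. Of the other filament genes 5 rose, led by Nes (2.78 ± 0.27), Nefl (2.45 ± 0.35) and Ina (1.86 ± 0.17), and 3 fell: Vim, the mesenchymal filament vimentin, by -2.31 ± 0.16, Lmnb1 by -1.67 ± 0.18 and Lmnb2 by -0.995 ± 0.12.

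**Figure D3:**
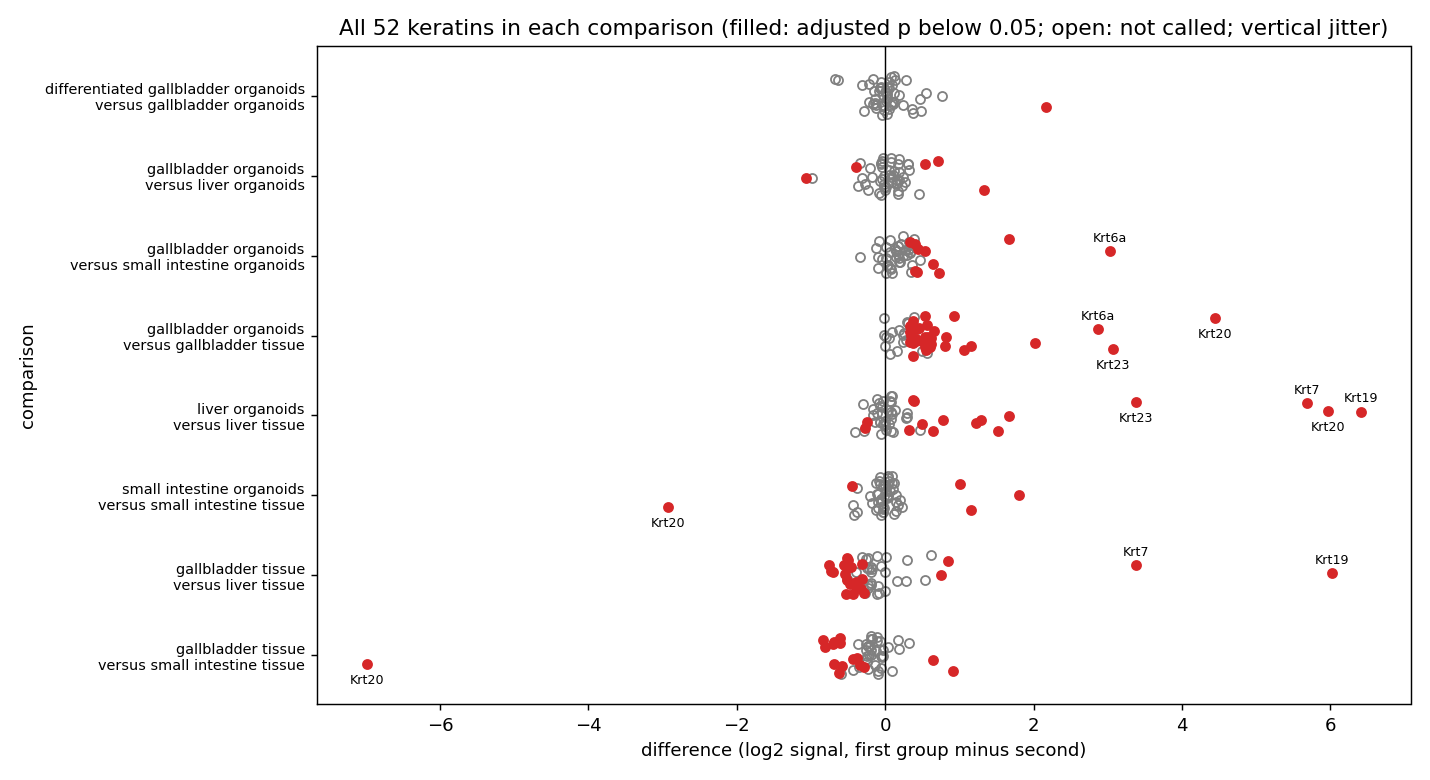
Difference in log2 signal (first group minus second, x axis) of each of the 52 keratins in the 8 comparisons (rows); filled points are called. Most keratins lie within 1 unit of zero in every row, and Krt20 is far to the left in both comparisons with small intestine tissue on the other side (-2.93 and -6.98).

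Against gallbladder tissue, gallbladder organoids had higher Krt20 by 4.45 ± 0.40 (limma, adjusted p = 1.72e-05), Krt23 by 3.07 ± 0.13, or 8.42-fold (1.15e-07), and Krt6a by 2.87 ± 0.19 (2.19e-06), the last at least 3.24-fold. Krt20 was above the low range on 1 of the 2 gallbladder tissue arrays, so no fold is given for it. Its SD was 1.24 in gallbladder tissue and 0.0121 to 0.0612 in the other groups. The SE of 0.40 pools all 7 groups and so understates the spread in gallbladder tissue. Krt7 was higher by 2.02 ± 0.22, or 4.07-fold (limma, adjusted p = 5.35e-05), Krt17 by 1.16 ± 0.12 (3.59e-05), Krt4 by 1.06 ± 0.23 (0.00385) and Krt80 by 0.60 ± 0.14 (0.00584). Gallbladder tissue lay within the low range for Krt17, which was at least 1.23-fold higher, and both groups lay within it for Krt4. Krt80 was not called without gallbladder organoid replicate 2 (limma, adjusted p = 0.0513). Krt18 (0.56, adjusted p = 0.124), Krt8 (0.29, 0.208) and Krt19 (0.01, 0.945) were not called by limma. Krt8 and Krt19 read above the 99th percentile of all genes on both arrays of each group, where signals can level off. In all, 33 of 52 keratins were higher in gallbladder organoids and none was lower, beside 47.9% of all genes called (32.7% higher and 15.2% lower). Of the 33, 27 differed by under 1 log2 unit, and 14 were not above the low range on both arrays of either group. The median over the 52 keratins was 0.422, against 0.169 over all genes, while the olfactory receptor genes had a median of -0.169. With the dimmest 40% of genes left out, 10 keratins were called, and without gallbladder organoid replicate 2 there were 19. Smooth muscle markers averaged 6.98 and 7.01 in gallbladder organoids and 13.2 and 12.8 in gallbladder tissue, and hepatocyte markers 7.52 and 7.43 in gallbladder organoids and 12.8 and 13.9 in gallbladder tissue, and their part in the keratin differences was not tested. Squamous markers other than keratins averaged 7.34 and 7.39 in gallbladder organoids and 6.32 and 6.10 in gallbladder tissue, with 6 of 11 called higher and none lower. The largest was Ivl, involucrin, at 11.27 and 11.35 in gallbladder organoids and 5.995 and 6.14 in gallbladder tissue, and next Lor, at 10.20 and 10.25 in gallbladder organoids and 6.66 and 6.56 in gallbladder tissue. Their part in the Krt6a, Krt17 and Krt4 differences was not tested. Epithelial markers averaged 11.48 and 11.51 in gallbladder organoids and 11.3 and 10.7 in gallbladder tissue.

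In the list of 17 other filament genes, 8 rose and 3 fell in gallbladder organoids relative to gallbladder tissue, beside 32.7% of all genes higher and 15.2% lower. Those that fell were Des, muscle desmin and itself 1 of the smooth muscle markers (-6.10 ± 0.17), Vim (-5.78 ± 0.16) and Synm, synemin (-1.62 ± 0.12). The 3 that rose most were Nefl (3.36 ± 0.35), Nes (2.74 ± 0.27) and Ina (2.42 ± 0.17). Of the linkers, 3 rose (Pkp1 0.79 ± 0.16, Pkp3 0.69 ± 0.18, Pkp2 0.49 ± 0.18) and 3 fell (Dst -2.46 ± 0.14, Macf1 -1.64 ± 0.19, Plec, or plectin, -0.79 ± 0.25). Plec and Pkp2 were not called when any 1 of these 4 arrays was left out, Pkp3 not without gallbladder organoid replicate 2, and Pkp2 also not after quantile normalisation (limma, adjusted p = 0.128) or median centring (0.0501).

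All 5 simple keratins were higher in liver organoids than in liver tissue. Krt19 was higher by 6.41 ± 0.12, or 85.2-fold (limma, adjusted p = 1.8e-09), Krt20 by 5.97 ± 0.40 (1.51e-06), at least 37.5-fold, and Krt7 by 5.69 ± 0.22, or 51.5-fold (4.93e-08). For Krt19 and Krt7, both liver organoid arrays read above their 99th percentile of all genes (12.82 and 12.87). Signals can level off there, so these 2 folds are those of the deposited signals only. Of the pair that hepatocytes also make, Krt18 was higher by 1.53 ± 0.28 (limma, adjusted p = 0.00117) and Krt8 by 1.22 ± 0.18 (0.000251). Krt23 was higher by 3.38 ± 0.13 (limma, adjusted p = 4.81e-08), Krt80 by 1.67 ± 0.14 (6.34e-06), Krt6a by 1.29 ± 0.19 (0.000267), Krt4 by 0.77 ± 0.23 (0.0182) and Krt17 by 0.38 ± 0.12 (0.0233). Liver tissue lay within the low range for these members other than Krt80, which makes Krt23 at least 7.95-fold, Krt6a at least 1.45-fold and Krt17 at least 1.12-fold higher. For Krt4, 1 of the 2 liver organoid arrays was above the low range, so no fold is given. In all, 14 keratins were higher and 2 lower, beside 44.9% of all genes called (26.7% higher and 18.2% lower), and the 8 that differed by 1 unit or more were all higher. Among the 16 called, 4 were not above the low range on both arrays of either group. After median centring the split was 10 higher and 5 lower. The count fell to 9 without liver organoid replicate 1, and without either that array or liver tissue replicate 1 neither Krt4 nor Krt17 was called. Krt17 was also not called after median centring (limma, adjusted p = 0.0644). Epithelial markers averaged 11.9 on both liver organoid arrays and 7.58 and 7.53 in liver tissue, and hepatocyte markers 7.57 and 7.58 in liver organoids and 14.08 and 14.02 in liver tissue, and their part in these differences was not tested. Squamous markers other than keratins averaged 7.37 and 7.15 in liver organoids and 6.32 and 6.27 in liver tissue, with 5 of 11 called higher and none lower. For Ivl the liver organoid arrays had 12.35 and 11.86 and the liver tissue arrays 6.32 and 6.22, and for Lor the liver organoid arrays had 8.99 and 8.32 and the liver tissue arrays 6.75 and 6.64. Tuft cell markers averaged 8.54 and 8.15 in liver organoids and 6.48 and 6.58 in liver tissue, with 6 of 9 called higher. The part of these lists in the keratin differences was not tested.

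Of the 12 linkers, 8 rose, none fell and 4 were not called in liver organoids, beside 26.7% of all genes higher and 18.2% lower. They were led by Dsp (2.80 ± 0.31), Ppl (2.60 ± 0.38) and Pkp1 (2.00 ± 0.16). Of the other filament genes, 7 rose, led by Lmnb1 (1.64 ± 0.18), Nes (1.40 ± 0.27) and Lmna (1.31 ± 0.12), and 4 fell, led by Vim (-3.60 ± 0.16), Des (-1.47 ± 0.17) and Iffo1 (-0.61 ± 0.17). Iffo1 was not called without liver tissue replicate 1 or liver organoid replicate 2.

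Small intestine organoids differed from small intestine tissue in 5 keratins, 3 higher and 2 lower, beside 35.8% of all genes (20.2% higher and 15.6% lower). Krt20 was lower in small intestine organoids, at -2.93 ± 0.40 (limma, adjusted p = 0.0003). Both small intestine tissue arrays read above their 99th percentile of all genes (13.10 and 13.11) for Krt20, where signals can level off, so no fold is given. Krt23 was higher by 1.80 ± 0.13, or 3.49-fold (limma, adjusted p = 6.33e-06), Krt18 by 1.16 ± 0.28 (0.00836) and Krt7 by 1.01 ± 0.22 (0.00466). The Krt18 call was lost without small intestine tissue replicate 2 (limma, adjusted p = 0.0579) or small intestine organoid replicate 1 (0.0537). The other lower keratin was Krt12, at -0.44. Quantile normalisation gave 5 higher and 2 lower. Enterocyte markers averaged 12.3 and 12.2 in small intestine organoids and 13.8 on both small intestine tissue arrays, with 7 of 7 above the low range in each, and their part in the Krt20 difference was not tested. Of the linkers, 2 rose (Pkp1 0.96 ± 0.16, Pkp2 0.61 ± 0.18) and 4 fell, led by Dst (-1.30 ± 0.14), Plec (-1.19 ± 0.25) and Pkp3 (-0.71 ± 0.18). Other filament genes moved both ways: 3 rose, Iffo2 (1.57 ± 0.16), Lmnb1 (1.25 ± 0.18) and Lmnb2 (0.50 ± 0.12), and 4 fell, led by Des (-5.12 ± 0.17), Vim (-1.51 ± 0.16) and Synm (-1.43 ± 0.12). Pkp2 and Lmnb2 were not called without small intestine tissue replicate 2 or small intestine organoid replicate 2, Pkp3 not without either small intestine organoid array or small intestine tissue replicate 1, and Lmnb2 not after quantile normalisation (limma, adjusted p = 0.173).

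**Figure D4:**
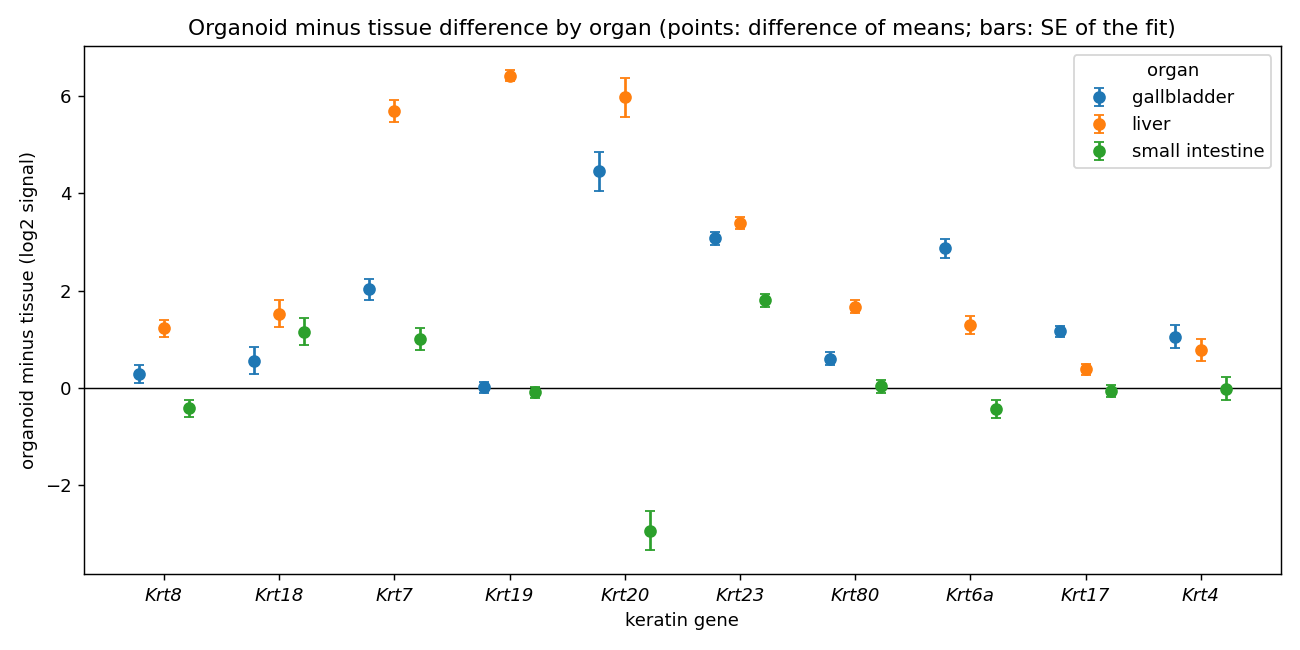
Organoid minus tissue difference in log2 signal (y axis) of the 10 named keratins in gallbladder, liver and small intestine, with bars for the SE of the fit. Krt20 is positive in gallbladder (4.45) and liver (5.97) and negative in small intestine (-2.93), and Krt19 is near zero in gallbladder (0.01) and at 6.41 in liver. Both gallbladder groups read above the 99th percentile of all genes for Krt19, where signals can level off.

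The organoid minus tissue difference was itself compared between organs in the same fit. In gallbladder minus liver, 18 keratins were positive and 4 negative, beside 39.8% of all genes called (22.7% positive and 17.1% negative), and quantile normalisation gave 12 and 7. The largest was Krt19, whose difference was 0.01 in gallbladder and 6.41 in liver (-6.40 ± 0.17, limma, adjusted p = 4.1e-08), and next was Krt7, at 2.02 in gallbladder and 5.69 in liver (-3.66 ± 0.31, 2.37e-05). For Krt19, both gallbladder groups and liver organoids read above the 99th percentile of all genes on every array, where signals can level off. In gallbladder minus small intestine, 20 keratins were positive and none negative, beside 36.6% of all genes (22.3% positive and 14.3% negative). Krt20 led, at 4.45 in gallbladder and -2.93 in small intestine (7.38 ± 0.57, limma, adjusted p = 1.92e-05), and Krt6a was at 2.87 in gallbladder and -0.43 in small intestine (3.29 ± 0.27, 2.7e-05). This count was 11 to 13 without either gallbladder organoid array, either small intestine organoid array, small intestine tissue replicate 1 or gallbladder tissue replicate 2. Of the 20, the members that met the rule for naming were Krt20, Krt6a, Krt23, Krt17, Krt4, Krt7 and Krt80. The 2 contrasts share the gallbladder arrays. For Krt20 the SD was 1.24 in gallbladder tissue and 0.0612 or less in the other groups, and the SE pools all 7 groups.

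Gallbladder tissue had far higher signals of the duct keratins than liver tissue: Krt19 was higher in gallbladder tissue by 6.03 ± 0.12, or 65.3-fold (limma, adjusted p = 1.68e-09), and Krt7 by 3.39 ± 0.22, or 10.5-fold (2.28e-06). For Krt19, both gallbladder tissue arrays read above their 99th percentile of all genes (12.75 and 12.87), where signals can level off. Krt23 was higher by 0.85 ± 0.13 (limma, adjusted p = 0.000491) and Krt8 by 0.76 ± 0.18 (0.00588), and Krt17 was at -0.47 ± 0.12 (0.00837), with both groups within the low range. Krt17 was not called without gallbladder tissue replicate 1 (limma, adjusted p = 0.0517). Krt20 was at 0.54 (limma, adjusted p = 0.296), and without gallbladder tissue replicate 1 it was lower in gallbladder tissue, at -0.34. The gallbladder and liver tissue arrays then left all lay within the low range for Krt20. In all, 4 keratins were higher and 20 lower in gallbladder tissue, beside 48.1% of all genes called (20.7% higher and 27.4% lower). Of these 24, 22 differed by under 1 unit and 11 were not above the low range on both arrays of either group. The count was 15 without liver tissue replicate 1, and 5 in a fit on these 4 arrays alone. In the same comparison 19.6% of the olfactory receptor genes were called higher. The array medians averaged 0.115 higher in gallbladder tissue, and centring on them brought all genes called higher to 32.0% of calls, against 43.0% as deposited. Of the linkers 6 rose, led by Dsp (1.93 ± 0.31), Dst (1.71 ± 0.14) and Ppl (1.57 ± 0.38), and 1 fell (Pkp1, -0.72 ± 0.16). Among other filament genes, 4 rose, led by Des (4.71 ± 0.17), Vim (2.64 ± 0.16) and Synm (1.56 ± 0.12), and 3 fell (Prph -0.61 ± 0.14, Iffo2 -0.56 ± 0.16, Lmnb2 -0.40 ± 0.12). Iffo2 was not called without liver tissue replicate 2 or gallbladder tissue replicate 1, nor Lmnb2 without liver tissue replicate 2 or gallbladder tissue replicate 2.

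Against small intestine tissue, gallbladder tissue had much lower Krt20, at -6.98 ± 0.40 (limma, adjusted p = 7.39e-07). No fold is given, since 1 of the 2 gallbladder tissue arrays was within the low range and the small intestine signal was near the top of the scale. The SE of 0.40 is pooled over all 7 groups, and the SD of Krt20 was 1.24 in gallbladder tissue. Krt18 was higher by 0.91 ± 0.28 (limma, adjusted p = 0.0233) and Krt7 by 0.65 ± 0.22 (0.0339). Krt23 (-0.84 ± 0.13, adjusted p = 0.000485), Krt8 (-0.70 ± 0.18, 0.00964) and Krt17 (-0.69 ± 0.12, 0.00104) were lower in gallbladder tissue by limma. Krt18 and Krt7 were not called without small intestine tissue replicate 2, which had the acinar signal (limma, adjusted p = 0.132 and 0.233), or without gallbladder tissue replicate 1 (0.105 and 0.228), and Krt7 was not called after median centring (0.0736) or without any 1 of the 4 gallbladder organoid arrays, differentiated ones included (0.05 to 0.0506). In all, 2 keratins were higher and 14 lower in gallbladder tissue, beside 45% of all genes called (20.7% higher and 24.3% lower), and 15 of the 16 differed by under 1 unit. Among the 16 called, 4 were not above the low range on both arrays of either group. In the same comparison 26.3% of the olfactory receptor genes were called higher. A fit on the gallbladder and small intestine tissue arrays alone called 3 keratins, beside 16.2% of all genes. Of the linkers 3 rose (Ppl 2.35 ± 0.38, Macf1 1.62 ± 0.19, Dst 0.92 ± 0.14) and 3 fell (Pkp3 -1.77 ± 0.18, Pkp1 -1.39 ± 0.16, Evpl -0.54 ± 0.15), and Evpl was not called without small intestine tissue replicate 1 or gallbladder tissue replicate 2. The other filament genes had 4 that rose, led by Vim (1.96 ± 0.16), Des (0.996 ± 0.17) and Iffo2 (0.86 ± 0.16), and 5 fell, led by Lmnb1 (-1.32 ± 0.18), Lmnb2 (-1.19 ± 0.12) and Prph (-0.82 ± 0.14). Smooth muscle markers were at 13.2 and 12.8 in gallbladder tissue and 11.4 and 11.3 in small intestine tissue.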

How the data were processed

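Total RNA was hybridised to 14 arrays. The authors deposited log2 expression values made with RMA, per the submitters' processing notes; the version is not given in the sources used here. The table held 35556 probe sets, of which 21789 had 1 gene symbol, 1621 several and 12146 none listed. The brightest 1-symbol probe set stood for each gene, giving 19938 genes. Differences were fitted with limma 3.58.1 in R 4.3.3 on all 14 arrays with 1 mean per group (7 residual degrees of freedom), 2-sided, with Benjamini-Hochberg adjustment over all genes and calls at an adjusted p under 0.05. The number of arrays limits the precision. Keratins were named if their group mean reached 9 or a called difference reached 1; from partner lists, the called members with the largest differences, at most 3 each way, were named. The members and lists were chosen with earlier results of these data known. The fit was tested on simulated data for differentiated against undifferentiated gallbladder organoids, in which only planted genes differed. It called 12 of 50 planted differences of 0.5 log2 units and 30 of 50 of 1 unit. For 2 and 3 units it called 46 and 48 of 50, and it made 7 false calls. The simulated noise had 1 spread per gene on all 14 arrays. In the data the 2 gallbladder organoid groups had a pooled SD over all genes of 0.0952 and 0.0985, against 0.289 to 0.404 in tissues. The simulated counts therefore do not measure how many differences the fit finds between those 2 groups in the data. Positions and promoters are RefSeq's (GRCm38.p6). Alternatives covered normalisation, centring, dim genes, probe sets, array weights, variance prior, a minimum difference, a replicate block, fits on the arrays compared and left-out arrays. Correlations of replicate differences between same-numbered arrays ran from -0.104 to 0.139, so the numbers were not taken as pairs.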

Additional observations from a re-analysis of the deposited data

Results flagged for a closer look

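The keratin values given here were singled out because the organoid minus tissue difference of gallbladder differed from that of another organ by the interaction test (limma, adjusted over all genes). Set against liver, the gallbladder difference was lower for Krt19 by -6.40 (adjusted p = 4.1e-08), Krt7 by -3.66 (2.37e-05), Krt80 by -1.07 (0.00243) and Krt8 by -0.94 (0.0147), and higher for Krt6a by 1.57 (0.00149) and Krt17 by 0.78 (0.00496). Set against small intestine, it was higher for Krt20 by 7.38 (adjusted p = 1.92e-05), Krt6a by 3.29 (2.7e-05), Krt23 by 1.27 (0.000662), Krt17 by 1.23 (0.000499), Krt4 by 1.07 (0.0272), Krt7 by 1.02 (0.0277) and Krt80 by 0.57 (0.0474). The Krt4 value was not called without either gallbladder organoid array, small intestine organoid replicate 2, either small intestine tissue array or gallbladder tissue replicate 2 (limma, adjusted p 0.0504 to 0.093), nor with array weights (0.13). The Krt7 value against small intestine was not called after quantile normalisation (0.0572), nor without any 1 of the organoid arrays of the 2 organs, small intestine tissue replicate 1 or gallbladder tissue replicate 2 (limma, adjusted p 0.0546 to 0.0881). The Krt80 value against small intestine, close to the threshold, was not called after quantile normalisation (0.0606), median centring (0.0552) or with the replicate number as a block (0.0514), nor without any 1 of the gallbladder arrays (0.0657 to 0.15), either small intestine organoid array (0.0744 and 0.143) or small intestine tissue replicate 1 (0.112), nor without any 1 of the differentiated gallbladder (0.0619) or liver organoid arrays (0.058). Several of these differences rest on groups within the low range, such as Krt6a in small intestine organoids and in all 3 tissues. Krt19 read above the 99th percentile of all genes in both gallbladder groups and in liver organoids, where signals can level off.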

How the results depend on the processing

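Over 100 differences of the named keratins, 54 were called. These keratins were named for their levels or calls in this same fit, so the 54 is not a rate for the family. Of 2270 values under alternatives, 2073 stayed on the same side of the threshold, 112 were no longer called and 84 were newly called. The 1 reversal was Krt20 in gallbladder against liver tissue without gallbladder tissue replicate 1 (-0.34, against 1.42 without replicate 2 and 0.54 with both). Without replicate 1, the arrays left of both tissues lay within the low range for Krt20. Counts are given in the order differentiated against undifferentiated gallbladder organoids, gallbladder against liver organoids, gallbladder against small intestine organoids, organoids against tissue for gallbladder, liver and small intestine, gallbladder against liver tissue, gallbladder against small intestine tissue, then the interactions with liver and with small intestine. As reported they were 1, 5, 10, 33, 16, 5, 24, 16, 22 and 20. Tested against a difference of 1 unit they were 0, 0, 1, 4, 5, 2, 2, 1, 2 and 2. Without the dimmest 40% of genes, which also takes dim keratins out of the test, they were 1, 3, 5, 10, 8, 5, 8, 10, 9 and 8. With array weights they were 13, 13, 27, 20, 11, 5, 10, 8, 17 and 10, and all genes called higher in the first comparison made up 48.2% of calls, against 59.3%. With fits on only the arrays compared they were 10, 12, 23, 23, 10, 6, 5, 3, 17 and 14. Quantile normalisation gave 6 for the third and 11 for the tenth, and in the second 2 higher and 4 lower, against 3 and 2. The cause of these changes was not tested. The labels do not say that a replicate number marks a shared batch; with the replicate number as a block, the counts were 1, 5, 10, 31, 16, 5, 21, 18, 22 and 20. With each of the 14 arrays left out in turn, the counts ran from 1 to 3, 2 to 7, 3 to 14, 19 to 34, 9 to 17, 4 to 6, 15 to 24, 14 to 18, 16 to 23 and 11 to 23; a group left with 1 array is assumed to vary like the others. Having 2 arrays a group and no detection calls limits what can be said of keratins near the low range.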
